A study of Mus musculus with 13 samples.

Results

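The genes described here are 36 genes of lipid synthesis, 21 of the cholesterol pathway and 15 of the fatty acid pathway. They were taken by symbol, as members of these pathways, from the 22048 genes of a deposited count table of whole mouse liver. All 36 were in the table, and all 36 passed the filter on low counts, which kept 13831 genes. RNA-seq was done on 13 livers in 3 groups, without any genotype, strain or age in the labels. The 6 controls, of which 1, 2 and 6 were male and 3, 4 and 5 female, kept their stellate cells. The 4 depleted livers (replicate 3 male, the others female) had lost their hepatic stellate cells, the vitamin A-storing pericytes of the sinusoids, by a method not given in the sources used here. The 3 hepatectomised livers (replicates 1 and 2 male, replicate 3 female) were not depleted and were taken 72 h after partial hepatectomy, an operation that takes out some of the liver and lets the rest grow back. Nothing in the labels ties libraries to litters or cages, so p-values measure the spread between these samples.

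Liver makes much of the body's cholesterol and fatty acid. Both pathways start from cytosolic acetyl-CoA and draw on NADPH. The cholesterol enzymes are switched on mainly by the transcription factor SREBP-2 (gene Srebf2), which is held in the endoplasmic reticulum by Insig proteins while sterol is plentiful. The fatty acid enzymes answer mainly to SREBP-1c (gene Srebf1), downstream of insulin, and to the carbohydrate-sensing factor ChREBP (gene Mlxipl). Desaturases and elongases then turn the saturated product of fatty acid synthase, and dietary polyunsaturated fatty acids, into the chains that membranes and triglyceride use.

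Promoter sequences show where some short binding motifs lie. RefSeq promoters on GRCm38.p6, from 250 bases before to 50 after a gene's start, were matched for 30 of the 36 genes. Fads1, Fdft1, Fdps, Scd1, Sqle and Stard4 had no entry. The motifs searched on both strands were TCACNCCAC (a form of the sterol regulatory element), CACGTG (an E-box) and CCAAT (bound by NF-Y), and no matches overlapped in the promoters printed. The promoters of Hmgcs1 and Mlxipl, each the only gene of its arm with a match to TCACNCCAC, are printed first. Mvk, with the most CCAAT matches among those printed, and Sc5d, Elovl5 and Fads2, which fell with depletion, were added after values were seen. Capitals mark every match, with ATTGG the CCAAT motif read on the other strand.
Hmgcs1, chr13:119690101-119690400, plus strand: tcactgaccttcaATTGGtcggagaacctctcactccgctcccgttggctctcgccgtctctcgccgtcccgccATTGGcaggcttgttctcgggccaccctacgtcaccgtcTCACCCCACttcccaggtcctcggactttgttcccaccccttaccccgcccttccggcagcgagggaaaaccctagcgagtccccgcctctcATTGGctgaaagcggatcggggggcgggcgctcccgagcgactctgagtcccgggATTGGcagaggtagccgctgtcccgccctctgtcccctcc
Mlxipl, chr5:135106641-135106940, plus strand: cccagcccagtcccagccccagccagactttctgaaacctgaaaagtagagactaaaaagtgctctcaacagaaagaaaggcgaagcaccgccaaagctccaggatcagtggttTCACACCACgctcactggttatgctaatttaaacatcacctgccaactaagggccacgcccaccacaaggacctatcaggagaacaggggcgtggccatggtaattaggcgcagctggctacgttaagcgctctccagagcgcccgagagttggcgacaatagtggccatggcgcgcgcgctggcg
Mvk, chr5:114444019-114444318, plus strand: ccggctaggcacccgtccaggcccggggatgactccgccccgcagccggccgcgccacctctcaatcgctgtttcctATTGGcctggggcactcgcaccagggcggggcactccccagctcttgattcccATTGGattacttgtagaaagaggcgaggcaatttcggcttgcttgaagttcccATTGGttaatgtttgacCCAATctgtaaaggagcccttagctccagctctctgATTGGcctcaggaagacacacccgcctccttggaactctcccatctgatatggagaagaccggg
Sc5d, chr9:42264251-42264550, minus strand: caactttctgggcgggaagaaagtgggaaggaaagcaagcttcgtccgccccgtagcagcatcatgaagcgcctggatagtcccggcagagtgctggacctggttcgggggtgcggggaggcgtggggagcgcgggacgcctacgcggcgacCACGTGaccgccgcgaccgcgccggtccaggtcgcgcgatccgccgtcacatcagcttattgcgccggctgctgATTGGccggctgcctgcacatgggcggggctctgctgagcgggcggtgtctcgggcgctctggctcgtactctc
Elovl5, chr9:77917115-77917414, plus strand: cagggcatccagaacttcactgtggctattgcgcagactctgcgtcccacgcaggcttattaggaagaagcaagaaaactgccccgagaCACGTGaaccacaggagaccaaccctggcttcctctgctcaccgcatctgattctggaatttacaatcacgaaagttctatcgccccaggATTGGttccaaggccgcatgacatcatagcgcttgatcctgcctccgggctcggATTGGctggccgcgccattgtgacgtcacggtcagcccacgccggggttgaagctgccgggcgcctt
Fads2, chr19:10101454-10101753, minus strand: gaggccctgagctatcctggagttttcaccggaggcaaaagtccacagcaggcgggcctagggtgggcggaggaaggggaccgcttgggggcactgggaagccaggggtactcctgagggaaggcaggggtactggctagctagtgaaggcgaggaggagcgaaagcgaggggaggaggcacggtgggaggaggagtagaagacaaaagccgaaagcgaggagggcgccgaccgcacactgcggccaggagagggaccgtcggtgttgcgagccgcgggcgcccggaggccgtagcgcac

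The sterol element matched 137 bases before the start in Hmgcs1 and 136 bases before it in Mlxipl. It was found in 1 of 17 cholesterol genes and 1 of 13 fatty acid genes, against 1.44% of all genes with a promoter in the table. CCAAT was the common motif, present in 16 of 17 cholesterol genes (94.1%) and 10 of 13 fatty acid genes (76.9%), against 41.1% of all genes. The E-box was present in 4 of 17 cholesterol genes (23.5%) and 2 of 13 fatty acid genes (15.4%), against 8.09%. These distances are from the RefSeq starts. The Mlxipl window lies inside the gene's span in the deposited table, and the Hmgcs1 window lies wholly before its gene's start there (chr13:119690462). The Fads2 window held none of these letters. A match describes the sequence only and a missing match says nothing about a factor.

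Levels were compared between genes as TMM-scaled CPM (counts scaled to library size) per kilobase of the deposited gene length, in the 6 controls. Scd1, the desaturase that makes oleate, stood highest at 768 ± 566 CPM per kb (SD, n = 6). Fads2 followed at 271 ± 76.5, Sc5d at 216 ± 70.8, Fads1 at 200 ± 36.9, Thrsp at 173 ± 117 and Hmgcs1 at 137 ± 68.3. Each of these differed from the next by less than the larger SD of the pair. Lss, Acacb and Acaca were near the low end at 6.71 ± 3.04, 5.04 ± 2.24 and 3.51 ± 0.903, and the lipid droplet protein gene Pnpla3 was the lowest at 0.123 ± 0.118. All later levels are CPM without the length, so they compare livers and not genes.

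The libraries held 35360991 to 51008737 counts each, with ranges that overlapped between groups. Livers of the same group were spread widely in these genes. The median within-group SD on the log2 scale was 0.742 for the cholesterol genes and 0.57 for the fatty acid genes, against 0.2459 for all genes of at least 20 CPM. Stellate markers summed to 192 to 542 CPM in controls and 13.5 to 47.2 in depleted livers, and 8 of 8 fell. Depleted livers also had more macrophage (1384 to 2838 against 82.0 to 636 CPM in controls, 6 of 8 higher, with Clec4f at 18.8 ± 33.8 against 111 ± 49.1 CPM and not called), neutrophil (6 of 6 higher) and T cell (5 of 5 tested higher) marker RNA. Of their acute-phase genes 6 of 7 were higher, at 14417 to 24573 against 5804 to 8971 CPM, and of their proliferation markers 6 of 8 were higher, at 67.7 to 168 against 9.48 to 51.6 CPM. Their pericentral hepatocyte markers were lower, at 1307 to 2722 against 12145 to 16380 CPM (7 of 7 lower). Hepatocyte markers overlapped, at 65602 to 164530 in depleted and 63183 to 140250 CPM in control livers, with Apoa2 and Rbp4 the 2 of 7 that fell. Alb made up most of this sum, with a mean of 81171 of 102140 CPM in controls, so the sum mainly follows Alb. Control replicate 6 set the low end of several control ranges, with 82.0 CPM of macrophage, 192 of stellate, 68.7 of endothelial and 63183 of hepatocyte markers, while the other controls started at 447, 360, 230 and 88622. It is among the highest controls for the cholesterol genes. Without it the depletion comparison below gave 0 cholesterol genes higher and 1 lower, and 0 fatty acid genes higher and 6 lower. Adipocyte markers summed to at most 7.17 CPM in any liver, nearly all of it Adrb3, and Lep was at 0 in every library. The part of these cell-type shifts in the results below was not tested, and in whole liver fewer cells of a type and less RNA per cell cannot be told apart.

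**Figure D1:**
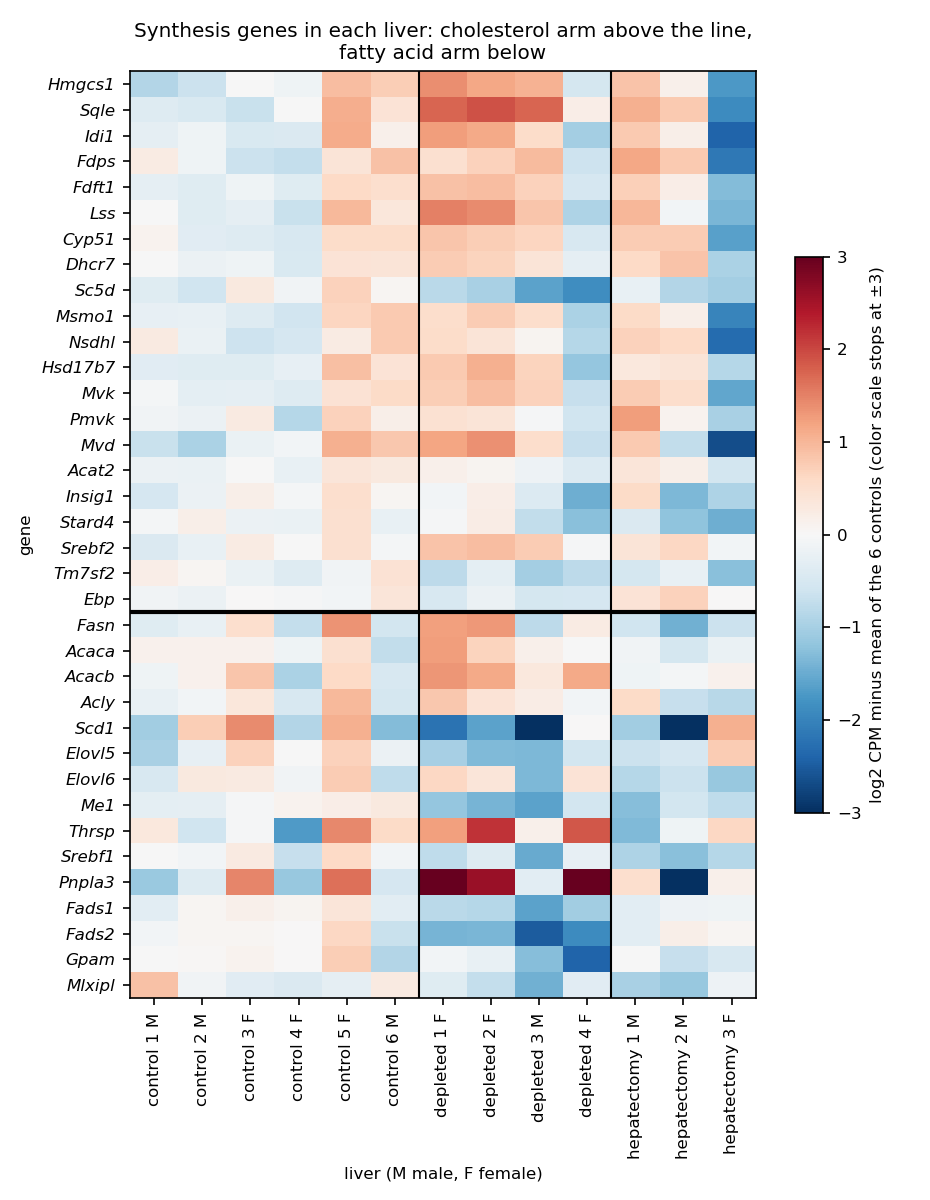
Heat map of the 36 genes (rows) in the 13 livers (columns, M male, F female), as log2 CPM minus the mean of the 6 controls, with the colour scale stopping at 3 either way. Hepatectomy replicate 3 and depleted replicate 4 are pale to dark blue over most cholesterol genes, while Fads1, Fads2 and Me1 are blue in all 4 depleted livers.

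The first comparison was of depleted with control livers. Of the 15 fatty acid genes, 6 fell and 0 rose by edgeR (Acacb and Pnpla3 rose by DESeq2 and by limma-voom). Over the same 15 genes, called ones included, unadjusted p was under 0.05 for 2 higher and 8 lower by edgeR. The share of all genes at that unadjusted threshold was not counted, here or in the comparisons below, so these counts have no background. Those that fell were the polyunsaturated desaturases Fads1 and Fads2, the elongase Elovl5, the oleate desaturase Scd1, malic enzyme Me1 and the regulator gene Srebf1. The cholesterol genes split, with Sqle and Srebf2 higher, Sc5d and Tm7sf2 lower and 17 of 21 without a call. Calls are those of edgeR's quasi-likelihood test with Benjamini-Hochberg adjustment over all 13831 genes, at an adjusted p under 0.05. In the same test 33.9% of all genes were called, 18.9% higher and 15% lower. The share called in either direction was 19% for the cholesterol genes, below that background. For the fatty acid genes it was 40%, near the background, and all of these calls were lower. The median log2 fold change was 0.51 over the cholesterol genes and -0.76 over the fatty acid genes, against -0.03 over all genes tested. The fatty acid median was -0.41 without depleted replicate 3, the only male, and -0.12 in females alone.

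Of the 36 genes, Fads2 and Fads1 of the polyunsaturated branch had the smallest adjusted p-values. Fads2 (chr19:10064164-10101503, minus strand) and Fads1 (chr19:10182888-10196870, plus strand) are neighbours on mm10, and Elovl5 is at chr9:77917364-77984519. Fads2, the delta-6 desaturase that opens the conversion of linoleic and linolenic acid, ran from 249 to 608 CPM in controls with a median of 405. The depleted livers held 152, 152, 69.9 and 107 CPM in replicate order. All 4 lay below every control. The log2 fold change was -1.92 ± 0.23 (SE), 3.78-fold lower, with an edgeR adjusted p of 5.95e-05. Fads1, the delta-5 desaturase of the next desaturation, ran from 543 to 875 CPM in controls with a median of 713. It stood at 387, 378, 222 and 329 in the depleted livers. Its groups were also apart. It had a log2 fold change of -1.18 ± 0.15 and an edgeR adjusted p of 7.95e-05. Elovl5, which lengthens the products of these desaturases, ran from 158 to 504 CPM in controls with a median of 292. The depleted livers were at 155, 124, 121 and 212 CPM, so that replicate 4 overlapped the lowest control. Its log2 fold change was -1.27 ± 0.24 with an edgeR adjusted p of 0.00118. Fads1, Fads2 and Elovl5 were each called lower after leaving out any of the 10 libraries in turn and under all 9 other settings.

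Me1 and Scd1 serve NADPH supply and oleate synthesis. Me1, the malic enzyme that yields NADPH for chain building, ran from 84.1 to 126 CPM in controls with a median of 105, and the depleted livers were at 45.8, 39.4, 33.6 and 69.9. No depleted liver reached a control. Its log2 fold change was -1.22 ± 0.21 with an edgeR adjusted p of 0.000835, and the call held in all 10 leave-outs and 9 other settings. Scd1 ran from 1146 to 7529 CPM in controls with a median of 3138. Depleted livers stood at 610, 923, 99.5 and 2831 CPM, the last inside the control range. It changed by a log2 fold change of -2.66 ± 0.85 with an edgeR adjusted p of 0.0294. The call was lost in 4 of 10 leave-outs, without the sex term (-1.73, adjusted p = 0.192), in females alone (-1.79, adjusted p = 0.135) and with the replicate number as a block (-3.17, adjusted p = 0.145). The leave-outs concerned were control replicate 3 and depleted replicates 1, 2 and 3, and edgeR adjusted p over all 10 ran from 0.00849 to 0.12. Reads of Scd1 and its near copy Scd2 may have been shared by the counting.

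The core chain builders did not pass the edgeR test. Fasn, the fatty acid synthase, was at 679, 708, 169 and 343 CPM in depleted livers against a control range of 177 to 729. Its log2 fold change was 0.22 ± 0.38 with an edgeR adjusted p of 0.702. Acaca and Acacb, the acetyl-CoA carboxylases, had log2 fold changes of 0.47 ± 0.25 and 0.75 ± 0.28, with edgeR adjusted p-values of 0.168 and 0.052. Acacb did pass with DESeq2 (adjusted p = 0.0257) and limma-voom (adjusted p = 0.0346). Acly, ATP citrate lyase, and Elovl6, the elongase of palmitate, had 0.23 ± 0.35 and -0.13 ± 0.33. The Elovl6 means, without the sex term, point the other way, at 85.9 CPM in depleted and 80.3 in control livers. Thrsp and Pnpla3, both lipogenic response genes, had 0.91 ± 0.55 and 1.76 ± 0.77, and Gpam, the first acyltransferase of triglyceride synthesis, had -0.92 ± 0.40. Pnpla3 passed with DESeq2 (adjusted p = 0.0434) and limma-voom (adjusted p = 0.0267), and Gpam fell by DESeq2 alone (adjusted p = 0.0453). Pnpla3 was high in female depleted livers at 3.58, 2.67 and 5.10 CPM and low at 0.314 in the male one, against 0.157 to 1.36 in controls. It had 0 counts in hepatectomy replicate 2, which allows up to 0.0842 CPM (3 counts).

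Of the lipogenic regulators, Srebf1 ran from 138 to 337 CPM in controls with a median of 214. The depleted livers were at 132, 170, 77.8 and 186 CPM, with replicates 2 and 4 inside the control range. Fitted, this was a log2 fold change of -0.85 ± 0.25 with an edgeR adjusted p of 0.0171. With the replicate block the call was lost (-0.73, adjusted p = 0.112), and it was lost in females alone (-0.61, adjusted p = 0.242) and without control replicate 5 or depleted replicate 3 (adjusted p up to 0.116). Mlxipl ran from 178 to 438 CPM in controls with a median of 211, and depleted livers were at 187, 145, 88.0 and 190. It did not pass, at -0.76 ± 0.34 with an edgeR adjusted p of 0.109. DESeq2 alone of the 9 other settings called it (adjusted p = 0.0494), and the value was -0.41 without depleted replicate 3 and -0.12 in females alone (adjusted p = 0.672). Srebf1 overlaps Rai1 on the other strand by 109 bases, and the strand setting of the counting is not given in the sources used here.

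**Figure D2:**
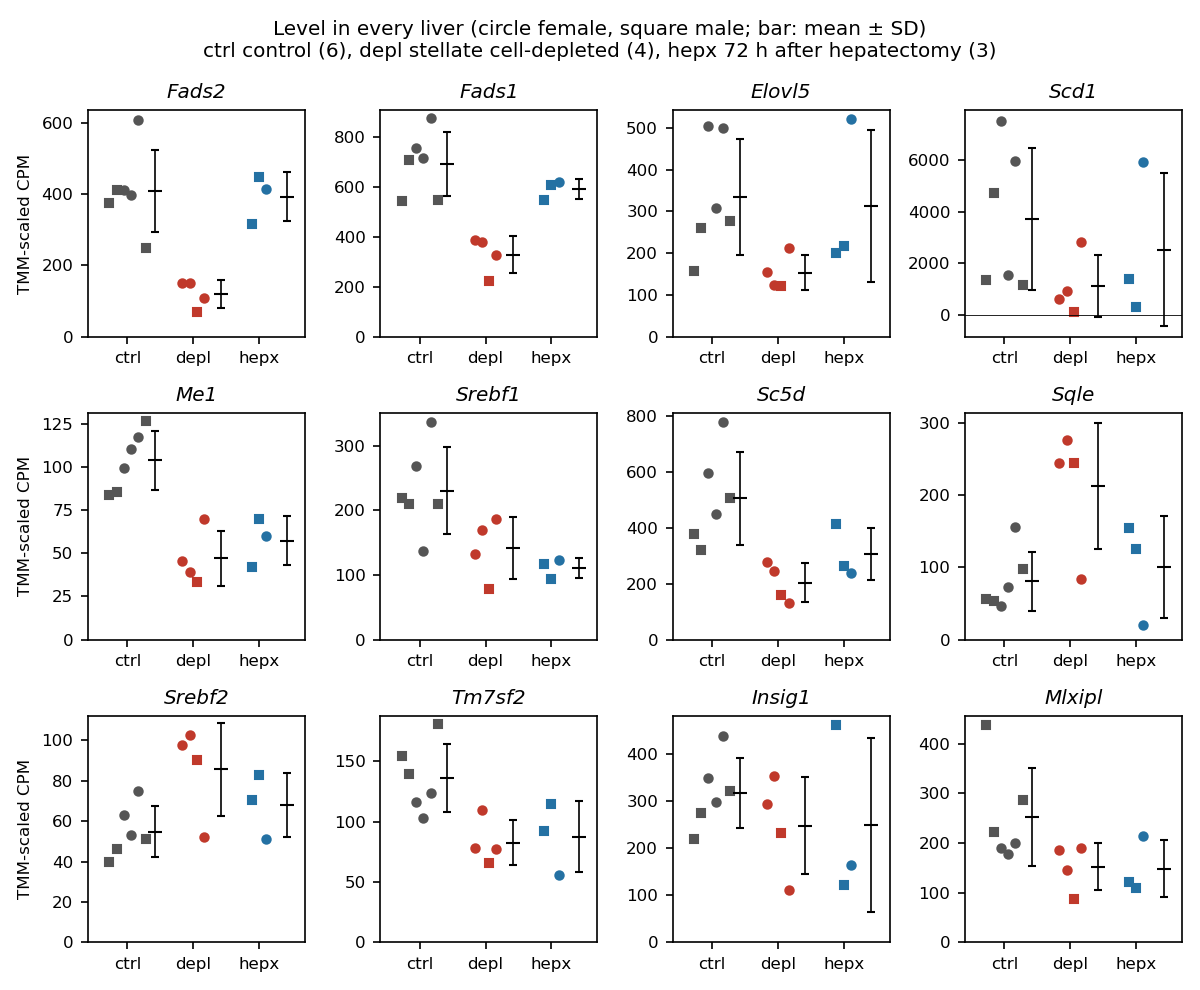
Level of 12 of the genes in every liver as TMM-scaled CPM (y axis), by group (x axis: control, depleted, hepatectomy), with circles for females, squares for males and bars at the mean ± SD. In Fads2, Fads1, Me1 and Sc5d the 4 depleted livers lie below all 6 controls, and in Sqle 3 of 4 lie above every control.

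In the cholesterol arm, Sqle, the squalene epoxidase that makes the first oxygenated sterol precursor, ran from 46.1 to 156 CPM in controls with a median of 64.9. Depleted replicates 1, 2 and 3 were at 245, 277 and 245 CPM and replicate 4 at 84.0. The first 3 exceeded every control and the fourth did not. The log2 fold change was 1.44 ± 0.52 with an edgeR adjusted p of 0.0484. Srebf2, the SREBP-2 gene, ran from 40.0 to 75.2 CPM in controls with a median of 52.3, and was at 97.7, 103, 90.5 and 52.1 in depleted livers. Again replicates 1 to 3 were above all controls and replicate 4 was not. Its log2 fold change was 0.63 ± 0.22 with an edgeR adjusted p of 0.0421. In the 10 leave-outs both calls held only without control replicate 5 or without depleted replicate 4, with edgeR adjusted p up to 0.134 for Sqle and 0.182 for Srebf2. With the replicate block both were lost, Sqle at 1.88 (adjusted p = 0.0504) and Srebf2 at 0.69 (adjusted p = 0.0813), and both were lost in females alone (adjusted p = 0.206 and 0.364). Sqle was also lost without the low-count filter (adjusted p = 0.0726) and Srebf2 with limma-voom (adjusted p = 0.0566).

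Sc5d (mm10 chr9:42254177-42264300, minus strand), the lathosterol desaturase near the end of the pathway, fell. It ran from 319 to 776 CPM in controls with a median of 477, and was at 276, 246, 159 and 132 in depleted livers. All 4 were below every control. The log2 fold change was -1.38 ± 0.28, 2.60-fold lower, with an edgeR adjusted p of 0.00233, and the call held in all 10 leave-outs and 9 other settings. Tm7sf2, a sterol C14 reductase, ran from 103 to 181 CPM in controls with a median of 132, and was at 77.8, 109, 66.0 and 77.3 in depleted livers. Replicate 2 overlapped the controls. Its log2 fold change was -0.59 ± 0.20 with an edgeR adjusted p of 0.0404, and the call held in 3 of 10 leave-outs (without control replicates 2 or 4 or depleted replicate 2), with adjusted p up to 0.246. Without depleted replicate 3 the value was -0.31. It was lost in females alone (-0.37, adjusted p = 0.221) and with library size alone (adjusted p = 0.0549). The spans of Tm7sf2 and Vps51 share 532 bases on the same strand, and how reads there were counted is not given in the sources used here.

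The remaining 17 cholesterol genes did not pass. Hmgcs1, the cytosolic synthase that opens the mevalonate path, was at 1049, 898, 824 and 278 CPM in depleted livers, against 216 to 757 in controls. Lss, the cyclase that makes lanosterol, was at 190, 180, 119 and 35.2 against 42.3 to 132. Their log2 fold changes were 0.82 ± 0.51 and 0.91 ± 0.52, with edgeR adjusted p-values of 0.245 and 0.201. Both repeated the pattern of replicate 4 below the other depleted livers. Insig1, which retains SREBP in the endoplasmic reticulum, ran from 220 to 439 CPM in controls with a median of 310, and was at 294, 353, 232 and 112 in depleted livers. It had a log2 fold change of -0.37 ± 0.40. Ebp, the sterol isomerase, had -0.39 ± 0.16 with an edgeR adjusted p of 0.0732 (0.0443 with DESeq2). Only 4 of the 36 genes (Sc5d, Me1, Fads1 and Fads2, all lower) had CPM ranges that did not overlap between depleted and control livers, against 28.4% of all genes.

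The cholesterol arm split the depleted livers. The median over its 21 genes, relative to the control mean on the log2 scale, was 0.73, 0.73 and 0.54 in replicates 1, 2 and 3 and -0.69 in replicate 4. Replicates 1, 2 and 3 were above every control for 10, 11 and 7 of 21 genes, against 28.6%, 27% and 28.7% of all genes. Replicate 4 was above every control for 0 and below every control for 14 of 21, against 28.6% of all genes below. This liver had the highest macrophage (2838 CPM), T cell (68.6) and stellate (47.2) marker sums of the 4, and the highest proliferation sum (168). Its hepatocyte (65602 CPM, mostly Alb), endothelial (179) and neutrophil (127) sums were the lowest of the 4. Their part in its low cholesterol genes was not tested. Without it, the median log2 fold change of the arm was 0.76, and it was also 0.76 without control replicate 5. In the fatty acid arm a different liver stood apart. Depleted replicate 3, the only male, was below every control for 10 of 15 genes and above for 0, against 28.2% of all genes below. The female replicates 1, 2 and 4 were below every control for 6, 6 and 4 of 15. Replicate 3 was the lowest of all 13 livers for 8 of 15 genes. Its median was -1.35, while the 3 females were at -0.09, -0.23 and -0.09.

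**Figure D3:**
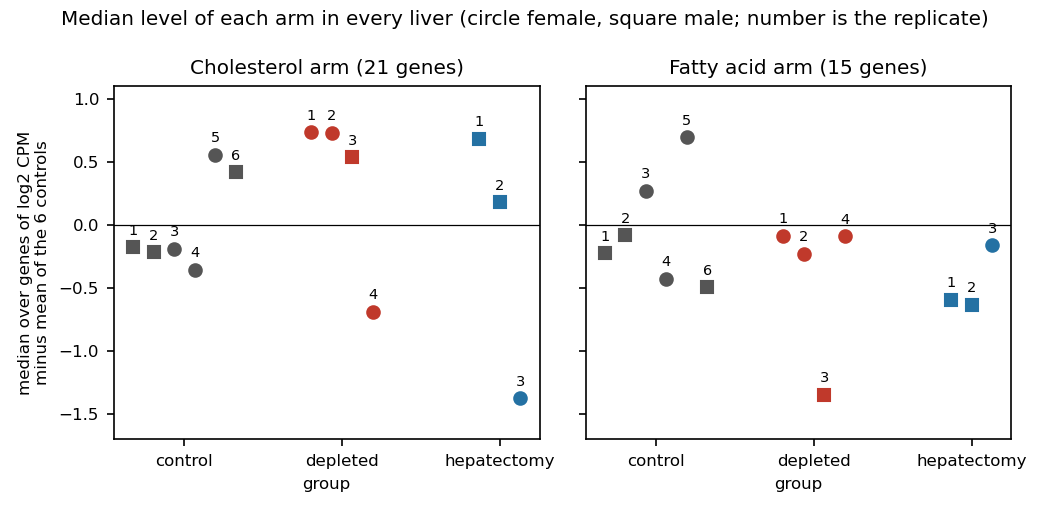
Median over the cholesterol genes (left, 21 genes) and fatty acid genes (right, 15 genes) of log2 CPM minus the control mean (y axis) in each liver, by group (x axis), with circles for females, squares for males and the replicate number beside each point. Depleted replicate 4 and hepatectomy replicate 3 are lowest on the left at -0.69 and -1.38, and depleted replicate 3 is lowest on the right at -1.35.

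In the livers 72 h after partial hepatectomy, 8 of 8 proliferation markers and 7 of 7 acute-phase genes were higher than in controls, in sums of 91.1 to 650 and 27557 to 66976 CPM. Neutrophil markers were higher in 5 of 6, at 17.6 to 32.8 against 0.690 to 4.72 CPM. Of the cholangiocyte markers 2 of 5 were higher, the keratins Krt19 and Krt7, by 2.10 ± 0.33 and 2.14 ± 0.39 on the log2 scale. Sox9, Epcam and Spp1 were not called. Of the hepatocyte markers Ahsg was higher (1 of 7), and of the pericentral markers Axin2 was lower (1 of 7). All 7 pericentral markers had values below 0. Their sum, mostly Cyp2e1, was 5655 to 11786 CPM against 12145 to 16380 in controls, without overlap. The part of these shifts in the results was not tested. The cholesterol genes gave no call in either direction. Unadjusted p was under 0.05 for 0 higher and 2 lower by edgeR, DESeq2 called 2 lower, Stard4 and Tm7sf2, and limma-voom called 0. Of the fatty acid genes, 2 of 15 fell, Me1 and Srebf1. Across all genes, 8.42% were called, 6.06% higher and 2.36% lower, by the edgeR test with the same threshold. The median log2 fold change was -0.09 over the cholesterol genes and -0.32 over the fatty acid genes, against -0.02 over all genes, and 14 of 15 fatty acid genes had a value below 0.

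Srebf1 was at 116, 93.5 and 124 CPM in the hepatectomised livers, below the lowest control at 138. The log2 fold change was -0.98 ± 0.26 with an edgeR adjusted p of 0.0378. Me1 was at 42.2, 70.0 and 60.1 CPM, below the lowest control at 84.1, with -0.81 ± 0.23 and an edgeR adjusted p of 0.0455. In the 9 leave-outs the Srebf1 call held only without control replicate 4 and the Me1 call only without hepatectomy replicate 2, with edgeR adjusted p up to 0.141 and 0.148. The same-numbered livers of these 2 groups deviated together, but they are also of the same sex and no longer did so once sex was taken out. With the replicate number as a block both calls were lost, Srebf1 at -0.89 (adjusted p = 0.14) and Me1 at -0.58 (adjusted p = 0.147). The depleted livers had their own values for the same genes, -0.85 and -1.22, against the same 6 controls, so the comparisons are not independent. Mlxipl was at 122, 110 and 214 CPM, with -0.77 ± 0.35 and an edgeR adjusted p of 0.199. Elovl6 and Fasn had log2 fold changes of -0.74 ± 0.36 and -0.77 ± 0.42 without a call.

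Fads1 and Fads2 were near control. Fads2 was at 316, 449 and 414 CPM and Fads1 at 547, 609 and 620, all inside the control ranges. Their log2 fold changes were 0.05 ± 0.23 and -0.14 ± 0.15, with edgeR adjusted p-values of 0.922 and 0.631. Elovl5 was at 199, 216 and 521 CPM, the last above the highest control, with -0.01 ± 0.25. Scd1 was at 1382, 306 and 5913 CPM, with replicate 2 below every control and the others inside their range. It did not pass, at -0.81 ± 0.80.

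Among the cholesterol genes, Stard4, a carrier of sterol between membranes, was at 146, 84.8 and 70.7 CPM, below the lowest control at 168. It was still without a call at -0.98 ± 0.34 (edgeR adjusted p of 0.0986). Tm7sf2 was at 92.4, 115 and 55.8 CPM with -0.72 ± 0.22 and an edgeR adjusted p of 0.0638. Sqle was at 154, 126 and 19.9 CPM and Hmgcs1 at 724, 447 and 121, with replicate 3 below every control in both. Srebf2 was at 70.3, 82.9 and 51.1, and Insig1 at 461, 121 and 164, each without a call. Stard4, Me1 and Srebf1 were the 3 of 36 whose ranges did not overlap those of controls, all lower, against 13.7% of all genes (7.41% higher and 6.25% lower).

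Hepatectomy replicate 3, the only female of its group, was the lowest of all 13 livers for 16 of 21 cholesterol genes and below every control for 19, against 18.6% of all genes in that liver. Ebp and Srebf2 were the exceptions. Its arm median was -1.38, while replicates 1 and 2 stood at 0.68 and 0.18. The median log2 fold change of the arm was 0.53 without replicate 3 and -0.48 without replicate 1, so its sign rests on single livers. Replicate 3 had the smallest proliferation marker sum of its group (91.1 CPM, against 190 and 650). It also had the highest hepatocyte marker sum (170820 CPM, mostly Alb), and the part of both sums was not tested. Sex and this liver cannot be told apart within the group.

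**Figure D4:**
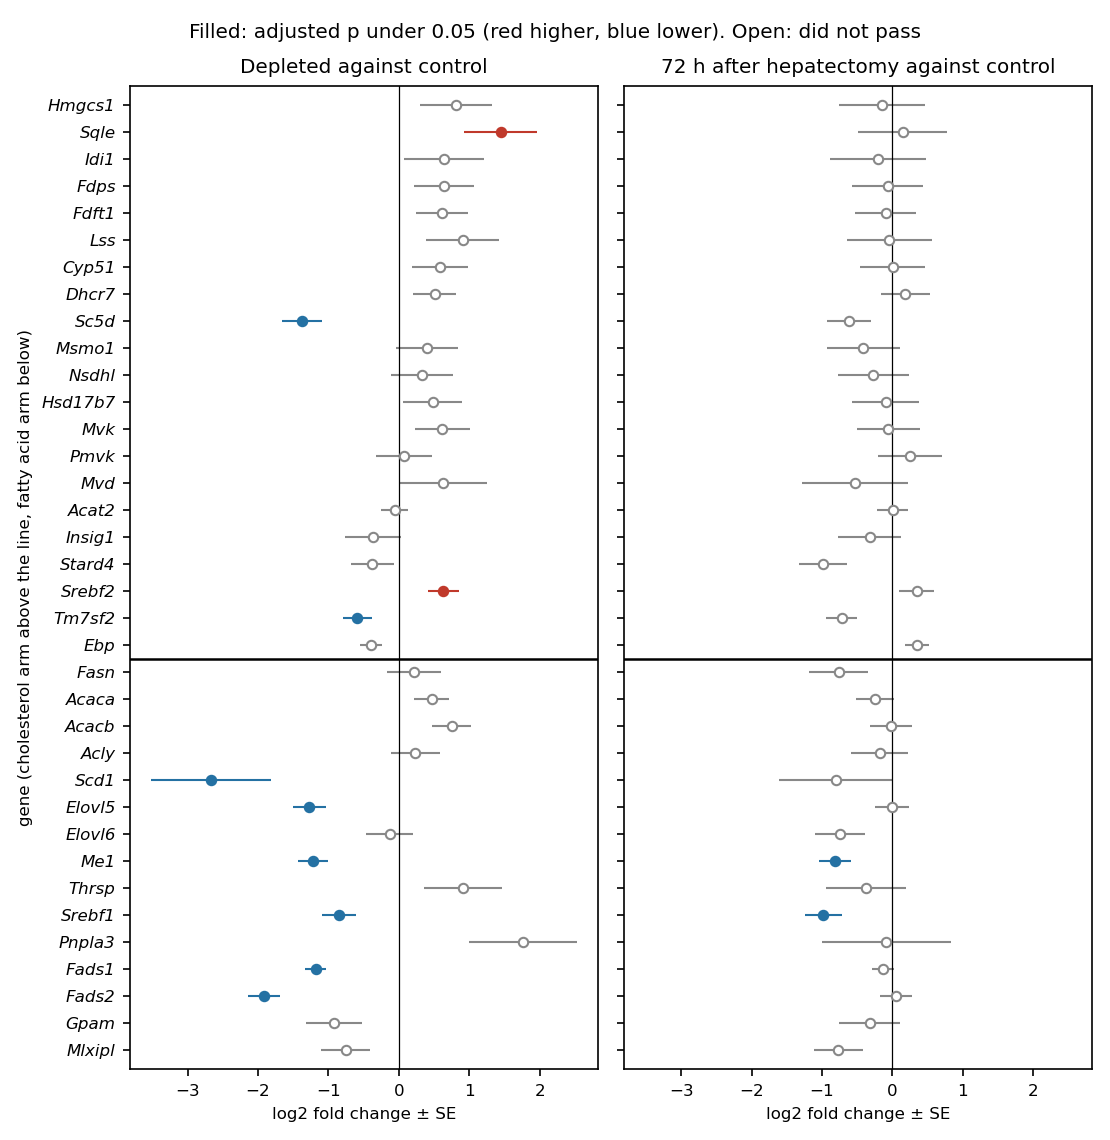
Log2 fold change ± SE (x axis) of each gene (y axis, cholesterol genes above the line, fatty acid genes below) for depleted against control livers (left) and hepatectomised against control livers (right), with filled points where the adjusted p was under 0.05. On the left 2 points are filled on the higher side and 8 on the lower side, and on the right only Me1 and Srebf1 are filled, both lower.

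Set directly against each other, depleted livers were lower than hepatectomised ones in the polyunsaturated branch. Fads2, Fads1 and Elovl5 had log2 fold changes of -1.97 ± 0.27, -1.05 ± 0.17 and -1.26 ± 0.27, with edgeR adjusted p-values of 0.000367, 0.00129 and 0.00505. Ebp was the 1 cholesterol gene called, at -0.74 ± 0.19 with an edgeR adjusted p of 0.0145. It stood at 171, 213, 167 and 169 CPM in depleted livers and at 317, 386 and 240 in hepatectomised livers, with no overlap. The Ebp call was lost without depleted replicate 3 (adjusted p = 0.0963) and in the fits of the 2 groups alone and with library size alone (adjusted p = 0.0805 and 0.0916). That of Elovl5 was lost without hepatectomy replicate 3 (adjusted p = 0.0503) and without the sex term (adjusted p = 0.078). Depleted livers thus differed in 4 of 36 genes, all lower, against 23.4% of all genes, 10.1% lower. Acaca and Acacb also had ranges apart, both higher in depleted livers, but did not pass at edgeR adjusted p-values of 0.115 and 0.126. Ranges were apart for 5 of the 36 genes and for 34% of all genes. The cholesterol median of 0.60 became -0.05 without hepatectomy replicate 3.

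Between the 3 male and 3 female controls, edgeR called 0 of the 36 genes, against 0.738% of 13005 genes tested. Unadjusted p was under 0.05 for 1 higher and 2 lower in males in each arm. In the fatty acid arm 14 of 15 genes had values below 0, lower in males, with a median of -0.50 against -0.01 over all genes. Elovl5 was the 1 gene called by DESeq2, at -0.92 ± 0.28 with an adjusted p of 0.0289. Its male controls were at 158, 259 and 276 CPM and its female controls at 504, 308 and 500, without overlap. Ranges were apart in 5 of the 36 genes, 2 higher and 3 lower in males, and the share of all genes was not counted. Elovl3, an elongase of very long chains outside the 36, was 5.40 ± 0.65 higher on the log2 scale in males, with an edgeR adjusted p of 0.0285.

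Other genes of lipid handling were described from 4 further lists. Of 18 tested genes of further elongation and triglyceride synthesis, 6 fell and 2 rose with depletion, where 15% of all genes were called lower and 18.9% higher. Elovl2, the elongase after Elovl5 in the polyunsaturated branch, went from 528 ± 59.9 (SD, n = 6) to 134 ± 38.3 CPM (SD, n = 4), with -2.07 ± 0.17 and an edgeR adjusted p of 4.84e-06. Acsl1, an acyl-CoA synthetase, went from 868 ± 125 to 308 ± 43.0 CPM, with -1.48 ± 0.16. Elovl3 had -4.14 ± 0.87. Scd2, a paralog of Scd1, and the phosphatidate phosphatase gene Lpin1 rose, by 1.74 ± 0.35 and 1.63 ± 0.52. Of 9 genes that supply precursor and NADPH, 2 rose and 2 fell, beside the same shares of all genes. G6pdx and Pgd of the pentose phosphate pathway rose, by 2.13 ± 0.34 and 0.99 ± 0.16, and Idh1 and Slc25a1 fell, at -0.70 ± 0.13 and -0.63 ± 0.14. G6pdx was at 24.7 to 29.0 CPM in depleted livers against 1.95 to 9.04 in controls, the same livers in which macrophage markers were higher, whose part was not tested.

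Of 17 genes of cholesterol transport and storage, 3 rose and 5 fell with depletion, against 18.9% of all genes higher and 15% lower. The share of these genes that rose was thus near that of all genes. The efflux transporter gene Abcg1, the cholesterol acyltransferase gene Soat1 and Npc2 rose, by 2.33 ± 0.41, 2.11 ± 0.40 and 1.11 ± 0.18. The largest falls were in the biliary transporter subunit Abcg8 (-1.31 ± 0.30), the lysosomal exporter Npc1 (-1.28 ± 0.22) and Soat2, the hepatocyte acyltransferase (-1.17 ± 0.15). Of 10 genes that process or retain SREBP, 4 fell and 0 rose by edgeR, so 40% were called against 33.9% of all genes. Unadjusted p by edgeR was under 0.05 for 6 lower and 0 higher, a threshold at which all genes were not counted. Scap, the escort of SREBP to the Golgi, went from 158 ± 20.3 (SD, n = 6) to 94.7 ± 12.1 CPM (SD, n = 4), with -0.77 ± 0.13 and an edgeR adjusted p of 0.000668. Erlin1 and Mbtps1, an endoplasmic reticulum protein that restrains SREBP and the first SREBP protease, had -0.55 ± 0.14 and -0.45 ± 0.14. In hepatectomised livers, where 8.42% of all genes were called, these 4 lists gave 2 calls, Lpin1 at 2.25 ± 0.56 and the ubiquitin ligase gene Rnf139 at -0.41 ± 0.11, with edgeR adjusted p-values of 0.0288 and 0.0426.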

How the data were processed

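Whole-liver RNA was taken up in TRIzol and made into stranded mRNA libraries from 500 ng, per the labels' protocols. The authors deposited raw read counts per gene with exon coordinates and gene lengths, and the submitters' processing notes name STAR 2.7.1a, SAMtools 1.15.1, featureCounts 1.6.4 and mm10. How multi-mapped reads and strand were treated is not given in the sources used here. Symbols came from a table of gene names, which matched 21741 of 22048 IDs. The 36 genes and all lists were chosen with earlier results of these data known.

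Counts were fitted with edgeR 4.0.16 in R 4.3.3 (robust quasi-likelihood, TMM scaling, filterByExpr on group, which kept 13831 genes) on group and sex over all 13 libraries, with Benjamini-Hochberg adjustment at 0.05. The male and female controls were compared in a fit of their own. Tests are two-sided, and SE is the log2 fold change over the square root of F. Log2 CPM used a prior count of 2. The common biological coefficient of variation was 31.4%. At these depths 3 counts correspond to 0.0524 to 0.09 CPM, which covers counting error only. Values per library are given for called genes and for Srebf1, Srebf2, Insig1 and Mlxipl by rule, and from each other list at most 3 called genes per direction. Stard4, Fasn, Hmgcs1, Lss, Pnpla3, Ebp and other uncalled members were described after their values were seen.

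Replicate numbers come from the labels. Deviations from group means correlated at 0.107 to 0.523 in the 3 same-numbered pairs of hepatectomised and control livers, which are also of the same sex, and at -0.191 to 0.084 once sex was taken out. The depleted and control pairs gave -0.34 to 0.073, and -0.098 to 0.416 once sex was taken out. The depleted and hepatectomised pairs gave -0.351 to -0.001, and 0.041 to 0.272. Alternatives were no sex term, the 2 groups alone, DESeq2 size factors, library size alone, DESeq2 1.42.0, limma-voom 3.58.1, no low-count filter, the replicate block, females alone and each library left out. Of the 36 genes, 7 overlap the span of another gene, Fdps, Fdft1, Cyp51, Mvd, Tm7sf2, Acaca and Srebf1, and Acat2 has a near copy, Acat3. The largest overlap on the same strand was 7512 bases, of Fdps with Gm43738, and its part in the Fdps counts was not tested.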

Additional observations from a re-analysis of the deposited data

Results flagged for a closer look

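In 4 of 76 groups of gene values (4 to 6 livers each), a single liver stood farther from its nearest neighbour than Dixon's 95% limit, and chance gives about 3.8. Sqle was at 84.0 CPM in depleted replicate 4, with the nearest other depleted liver at 245 and a gap over range of 0.833 against a limit of 0.829. Idi1, an isopentenyl diphosphate isomerase gene, was at 48.9 CPM in control replicate 5, with the next at 25.1 (0.731 against 0.625). Ebp was at 309 CPM in control replicate 6, with the next at 243 (0.679 against 0.625), and at 213 CPM in depleted replicate 2, with the next at 171 (0.913 against 0.829).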

How the results depend on the processing

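Only Pnpla3 had counts near the floor, and its within-group SD on the log2 scale was also wide, at 1.58. Counting error and the spread between livers were not separated for any gene. For depleted against control livers, the cholesterol calls (2 higher, 2 lower) ranged over 0 to 2 higher and 1 to 3 lower as single libraries were left out, and the fatty acid calls (0 and 6) over 0 to 1 and 4 to 6. The medians ranged from 0.37 to 0.76 and from -0.93 to -0.41, and all-gene calls from 1786 to 2539 higher and 1174 to 2288 lower. Fatty acid genes called higher numbered 1 without the sex term and with library size alone, and 2 with DESeq2 and with limma-voom. Cholesterol genes called higher numbered 1 with limma-voom and without the filter, 0 with the replicate block and 0 in females alone, and those called lower 1 with library size alone and 1 in females alone. In females the fatty acid median was -0.12 and all-gene calls lower were 861. For hepatectomised against control livers, leave-outs gave 0 to 1 cholesterol calls lower, 0 to 1 fatty acid calls lower, cholesterol medians of -0.48 to 0.53, fatty acid medians of -0.64 to -0.19, and all-gene calls of 401 to 930 higher and 82 to 401 lower. The 2 groups alone, library size alone and DESeq2 each called 2 cholesterol genes lower. All-gene calls lower were 1566 with library size and 746 with DESeq2. With the replicate block, 0 fatty acid genes were called lower and all-gene calls were 460 higher and 172 lower. For depleted against hepatectomised livers, leave-outs gave 0 to 2 cholesterol calls lower, 0 to 1 fatty acid calls higher and 2 to 4 lower, medians of -0.05 to 0.87 and 0.01 to 0.40, and all-gene calls of 1051 to 1974 and 658 to 1876. Fatty acid calls higher were 1 without the sex term, 1 with the 2 groups alone, 2 with library size alone and 2 with the replicate block. Cholesterol calls lower were 0 with the 2 groups alone and with library size alone, and all-gene calls lower were 707 and 610, with 3102 higher. For male against female controls, DESeq2 called 1 fatty acid gene lower and 246 and 203 of all genes, and leave-outs 18 to 115 and 14 to 85. Library size alone moved the all-gene median from -0.03 to 0.08 for depleted against control livers, from -0.02 to -0.24 for hepatectomised against control and from -0.05 to 0.27 for depleted against hepatectomised livers. The share of calls that were higher went from 55.7% to 66.2%, from 72% to 28.6% and from 56.8% to 83.6%. Of the 13 members followed under the alternatives, none that passed the test changed direction. Called genes of the other lists were not followed. The cause of each shift was not tested.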

Other observations

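Of 12 regulators of lipogenesis outside the 36 genes, 5 fell and 1 rose with depletion, so 50% were called against 33.9% of all genes. Irs1, the insulin receptor substrate, had a log2 fold change of -1.74 ± 0.32, Ppara, the fasting-response receptor, -1.45 ± 0.29, and the kinase subunit gene Prkaa2 -0.76 ± 0.15, with edgeR adjusted p-values of 0.00114, 0.0019 and 0.00199. Usf1, an E-box factor, rose by 0.48 ± 0.17, with an edgeR adjusted p of 0.0485. In hepatectomised livers, where 8.42% of all genes were called, Ppargc1b and Prkaa2 fell, at -1.61 ± 0.46 and -0.67 ± 0.16. Of 8 genes of the side branches of the mevalonate path, 2 fell with depletion (25%, below the 33.9% of all genes called), the thiolase Acat1 at -1.02 ± 0.18 and the ubiquinone gene Pdss2 at -0.53 ± 0.18.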
